A study of Rattus norvegicus with 4 samples.

Results

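The genes described here are the developmental transcription factors of the forkhead (Fox), Sox, paired-box (Pax), T-box (Tbx), LIM-homeobox (Lhx), Dlx, Msx, sine oculis (Six4 and its relatives), Irx, Pbx and Meis families, as they were read in 2 clones of PC12, a cell line derived from a rat pheochromocytoma, a tumor of the adrenal chromaffin cells. They were chosen by name alone, as a family prefix followed by a number (for the forkhead genes, Fox, a letter from a to s and a number), which gave 98 of the 25810 genes in the count tables. Of the 98 genes, 49 had at least 20 reads over the 4 libraries and are described below, 23 had fewer reads, and 26 had none. Genes of these families that carry no such name in the tables, Sox9 among them, were not analysed here. The study compared wtPC12, wild-type cells with low REST, with hrPC12, a clone with high REST that was earlier called PC12-27, by RNA-Seq with 2 libraries per clone and no treatment of either clone in the labels. REST is a repressor of neuronal genes. Each condition is 1 clone, so what differs between the clones besides REST cannot be told apart from REST itself. Since the labels do not say that the libraries of a clone came from separate cultures, the p values measure the spread between libraries only, which may be technical.

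All of these factors bind DNA in a sequence-specific way, and in the embryo they divide tissues into regions and lineages: the Sox proteins through an HMG box, the Fox proteins through the forkhead domain, the T-box and paired-box proteins through the domains they are named for, and the others, from Lhx to Meis, through a homeodomain. Some work as pairs, as Pbx proteins do with Meis and Hox proteins, and Six4 and its relatives with the Eya coactivators. In the sympathoadrenal lineage, from which chromaffin cells arise, Sox10 marks the neural crest precursors, and Sox4 and Sox11 act as the precursors divide and differentiate.

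Between 20975027 and 27246502 reads per library fell on genes. A normalized count is the read count divided by the library's effective size (its total corrected by the TMM method) relative to the mean of the 4. It grows with transcript length and was therefore compared between libraries and not between genes. The clones were compared by the quasi-likelihood test of edgeR, with p values adjusted over all 13726 genes tested after Benjamini and Hochberg, and a gene was called when its adjusted p was under 0.01 and its log2 fold change (log2 FC, hrPC12 over wtPC12) was past 2 in size. Rest itself had normalized counts of 43.0 and 132 in wtPC12 against 964 and 915 in hrPC12, on the side that the labels give (log2 FC 3.42 ± 0.57 SE, edgeR adjusted p = 0.0115). Markers of other cell types moved with the clones. Of 9 chromaffin markers, 8 were in the tables, 5 of them called lower in hrPC12 (Th, Dbh, Chgb, Phox2a and Slc18a1), with summed counts of 814790 to 953098 in wtPC12 and 45925 to 50398 in hrPC12. Of 6 fibroblast and mesenchyme markers, 3 were higher in hrPC12, with sums of 118 to 152 against 84263 to 88651, nearly all from Col3a1, while Dcn of the same list had 36.1 and 21.6 against 2.54 and 4.05. Of 5 skeletal muscle markers, 3 were higher, with sums of 75.2 to 108 against 3445 to 3805, mostly from Myod1, while Des had 72.1 and 37.1 against 17.8 and 9.11. Of the 3 epithelial markers in the tables, 2 (Epcam and Krt8) were lower, with sums of 36017 to 46899 against 8189 to 8277. The sums of 5 Schwann cell markers were 218 to 262 in wtPC12 and 301 to 310 in hrPC12, with Sox10 at 0. The 3 endothelial markers summed to 29.1 to 34.0 in wtPC12 and 59.7 to 63.5 in hrPC12, the 4 white blood cell markers to 33.0 to 33.7 and 84.7 to 94.1, and the single smooth muscle marker in the tables, Tagln, stood at 18.6 to 34.0 and 57.6 to 57.7. The part of any of these in the results was not tested, and in bulk RNA a change in the share of cells of one kind cannot be told apart from a change in the RNA of each cell.

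In hrPC12, 7 factors from 5 families fell past both thresholds: Tbx3, Tbx4, Lhx4, Lhx6, Dlx3, Sox18 and Foxh1. The 7 factors are 15.6% of the 45 that could be tested, and 5.46% of all genes tested were called lower. No factor was called higher (0 of 45, against 4.84% of all genes), although 13 of the 45 lay higher at an unadjusted p under 0.05 in the edgeR test, against 23.6% of all genes, and DESeq2 called 1. A further 4 factors had no read in one clone and were left out of the test: Foxq1 was read in wtPC12 only, and Foxp2, Pax8 and Tbx15 in hrPC12 only. Among all 14163 genes with at least 20 reads, 2.06% had no read in wtPC12 and 0.755% had none in hrPC12. At an adjusted p under 0.05 and any fold, 12 of the 45 were lower and 8 higher, against 16.3% and 16.1% of all genes. With the fold threshold added, 8 were lower and 5 higher, Foxn1, Irx5, Lhx9 and Sox6 among the latter, against 7.31% and 7.93% of all genes. The median log2 FC of the 45 was 0.13, and 0.18 over all 49 when the 4 untested genes were set at the bound of their fold, beside 0.06 over all genes tested. Without wtPC12 replicate 2 no gene in the table reached the threshold. The log2 FC of the 7 factors stayed past 2 in size in that fit, from −2.33 for Lhx4 to −9.81 for Tbx3. Without wtPC12 replicate 1, Dlx3, Lhx4, Lhx6, Tbx3 and Tbx4 were still called, Foxh1 and Sox18 were not, and Tbx20 was gained.

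**Figure D1:**
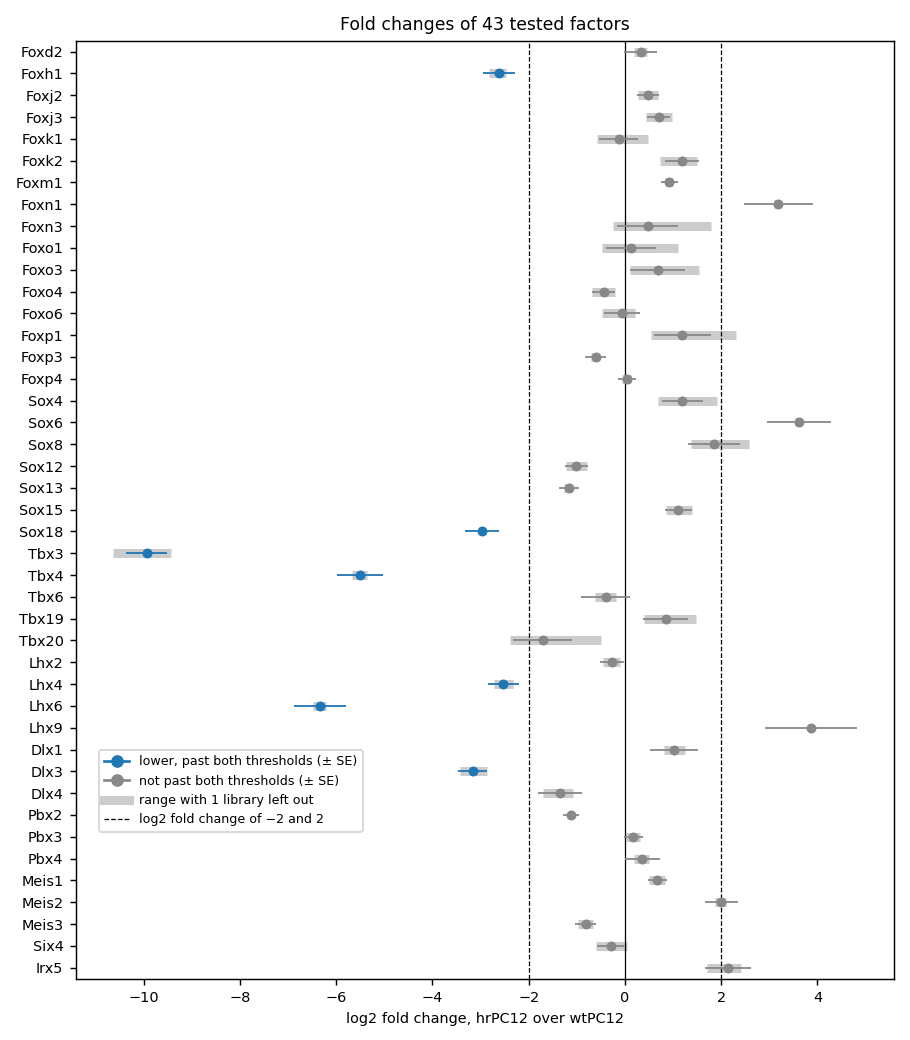
log2 FC (x axis, hrPC12 over wtPC12) of 43 of the 45 tested factors, by family (y axis), with thin bars of 1 standard error. Grey bands give the range of the value over the fits with 1 library left out in which the factor was tested. Only 2 such fits held Foxn1 and 1 held Lhx9, so their narrow bands do not show stability. Dashed lines mark the fold threshold of 2 on the log2 scale, and blue points the 7 factors called lower. The values run from −9.94 for Tbx3 to 3.87 for Lhx9, and no point to the right of 0 was called.

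The values of the 2 clones did not overlap for 38 of the 45 tested factors (84.4%), 18 of them lower and 20 higher in hrPC12, where 73.5% of all tested genes did not overlap. The 7 factors whose libraries overlapped were Six4 and 6 forkhead genes, Foxk1, Foxn3, Foxo1, Foxo3, Foxo6 and Foxp4. Of the 45, 20 had a log2 FC within 1 of 0.

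**Figure D2:**
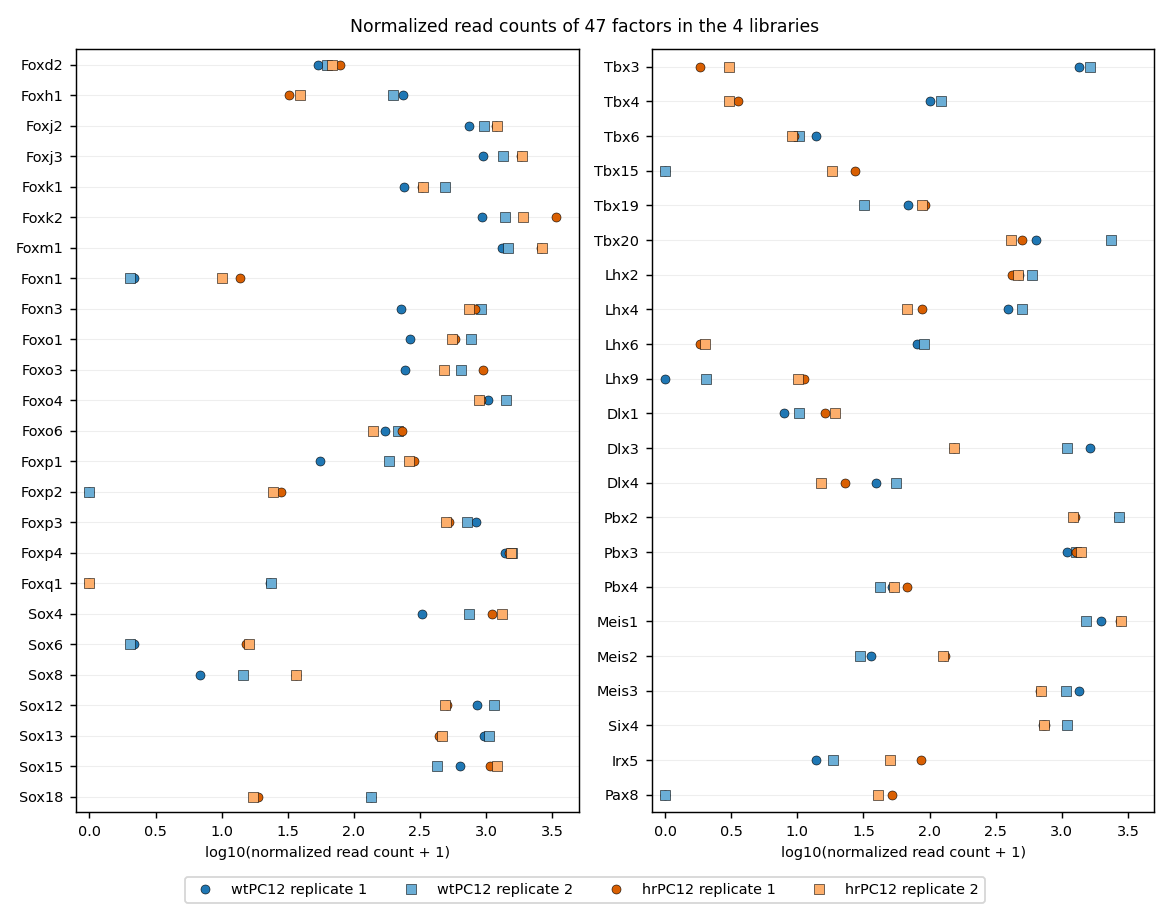
Normalized read counts of 47 of the 49 factors, as log10(normalized count + 1) on the x axis, with 1 row per gene and 1 point per library (blue, wtPC12; orange, hrPC12; circles, replicate 1; squares, replicate 2). Points at 0 are libraries with no read, as in both wtPC12 libraries for Foxp2, Pax8 and Tbx15 and in both hrPC12 libraries for Foxq1.

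Tbx3, a T-box repressor needed for limb and mammary gland development, showed the largest difference among the 45. Its normalized counts were 1358 and 1618 in wtPC12 and 0.847 and 2.02 in hrPC12, which is 2738 reads in wtPC12 against 3 in hrPC12. Both wtPC12 libraries were high and both hrPC12 libraries near 0, a ratio of 1082 with a 95% counting interval of 370 to 5250 (log2 FC −9.94 ± 0.42 SE, edgeR adjusted p = 0.000312). Tbx4, which acts in hindlimb and lung development, had 98.9 and 121 in wtPC12 and 2.54 and 2.02 in hrPC12. Its clones kept as clearly apart, at a ratio of 47.9 (95% counting interval 20.2 to 149, log2 FC −5.50 ± 0.48 SE, edgeR adjusted p = 0.00173). Intervals of this kind cover counting error only.

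Tbx15, a factor of the limb skeleton and of adipocytes, went the other way, with 0 reads in both wtPC12 libraries and normalized counts of 26.2 and 17.2 in hrPC12. Set against a floor of 3 reads per library, its level was at least 6.60-fold higher in hrPC12, and in a fit of all 18416 genes with any read it passed both thresholds (edgeR adjusted p = 0.00435). Tbx20, known from heart and cranial motor neuron development, had 641 and 2339 in wtPC12 and 500.3 and 409.8 in hrPC12. Both hrPC12 libraries were below both wtPC12 libraries, but the latter lay 3.65-fold apart, and the difference did not pass (log2 FC −1.71 ± 0.62 SE, edgeR adjusted p = 0.0907). Without wtPC12 replicate 1 it passed (log2 FC −2.40, edgeR adjusted p = 0.00376), and without wtPC12 replicate 2 the log2 FC was −0.49. Tbx19, the corticotroph factor of the pituitary, and Tbx6, a factor of the paraxial mesoderm, had log2 FC of 0.85 and −0.40 and did not pass.

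Among the LIM-homeobox factors, Lhx6 and Lhx4 fell in hrPC12. Lhx6, which specifies inhibitory interneurons of the forebrain, had 79.1 and 89.6 in wtPC12 and 0.847 and 1.01 in hrPC12. The hrPC12 values are 1 read in each library, and the ratio was 91.9 with a 95% counting interval of 25.0 to 765 (log2 FC −6.33 ± 0.54 SE, edgeR adjusted p = 0.00161). Lhx4, a factor of pituitary and motor neuron development, had 387 and 498 against 86.3 and 66.8. It was 5.76-fold lower in hrPC12, with no overlap (log2 FC −2.53 ± 0.32 SE, edgeR adjusted p = 0.00519). Lhx2, a factor of forebrain and eye development, differed little, with 476 and 593 in wtPC12 and 417 and 464 in hrPC12 (log2 FC −0.28 ± 0.25 SE, edgeR adjusted p = 0.417). Lhx9, known from gonad development, lay at the floor in wtPC12 with 0 and 1.03 and had 10.2 and 9.11 in hrPC12. Its ratio of 17.7 has a counting interval of 2.85 to 733 and did not pass (log2 FC 3.87 ± 0.96 SE, edgeR adjusted p = 0.0351).

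Dlx3, a homeobox factor of the epidermis, placenta and teeth, had 1644 and 1085 in wtPC12 and 152 and 153 in hrPC12. The hrPC12 libraries stood together well below the lower wtPC12 library, an 8.93-fold fall (log2 FC −3.16 ± 0.30 SE, edgeR adjusted p = 0.00218). Dlx4, its neighbor in the order of protein-coding genes of the GRCr8 rat assembly, had 38.4 and 54.6 against 22 and 14.2, also without overlap, and did not pass (log2 FC −1.35 ± 0.46 SE, edgeR adjusted p = 0.0780). Dlx1, a factor of forebrain interneurons like Lhx6, had 6.98 and 9.27 against 15.2 and 18.2 (log2 FC 1.02, edgeR adjusted p = 0.165). Dlx2, the neighbor of Dlx1, was read 5 times in wtPC12 and once in hrPC12, too few to describe.

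The promoters of 5 factors with few or no reads in one clone are shown next, since these genes differ most sharply between the clones and each entry is in the reference table. They are the 250 bases before the annotated start, in the direction of the gene, from RefSeq on the GRCr8 assembly, which is not the build the reads were aligned to. Of the 49 factors, 32 matched the table by symbol, among the 7 called lower only Lhx4, Lhx6 and Tbx4. Tbx4 lies at chr10:71228306-71228555 on the plus strand, Lhx6 at chr3:39853424-39853673 on the minus strand, Foxq1 at chr17:33124088-33124337 on the minus strand, Pax8 at chr3:27640632-27640881 on the minus strand and Tbx15 at chr2:189265123-189265372 on the plus strand. Capitals mark matches, on either strand, to GGACAG (a part of the REST element), TGATTGAC (from the joint Pbx and Meis element), the CCAAT box and the GC box GGGCGG. On the reverse strand GGACAG reads CTGTCC, the CCAAT box reads ATTGG and the GC box reads CCGCCC. No marked match overlaps another.
Tbx4: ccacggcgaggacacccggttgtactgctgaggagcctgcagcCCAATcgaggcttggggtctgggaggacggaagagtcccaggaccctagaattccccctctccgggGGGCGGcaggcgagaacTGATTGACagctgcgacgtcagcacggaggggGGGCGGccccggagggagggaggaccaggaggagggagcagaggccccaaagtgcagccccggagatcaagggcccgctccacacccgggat
Lhx6: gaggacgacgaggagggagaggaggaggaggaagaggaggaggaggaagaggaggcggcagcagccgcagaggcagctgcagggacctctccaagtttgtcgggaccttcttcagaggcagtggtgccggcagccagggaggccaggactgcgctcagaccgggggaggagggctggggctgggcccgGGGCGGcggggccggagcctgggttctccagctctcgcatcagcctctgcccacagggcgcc
Foxq1: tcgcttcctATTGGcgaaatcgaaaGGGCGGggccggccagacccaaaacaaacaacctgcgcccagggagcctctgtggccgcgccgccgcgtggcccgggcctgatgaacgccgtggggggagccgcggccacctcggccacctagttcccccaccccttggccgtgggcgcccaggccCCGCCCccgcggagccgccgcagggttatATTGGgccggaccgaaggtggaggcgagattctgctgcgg
Pax8: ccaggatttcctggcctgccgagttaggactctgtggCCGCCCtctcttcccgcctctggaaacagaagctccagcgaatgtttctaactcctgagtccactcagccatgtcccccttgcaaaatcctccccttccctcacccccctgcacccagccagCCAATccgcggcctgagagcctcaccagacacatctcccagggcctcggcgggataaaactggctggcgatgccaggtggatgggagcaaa
Tbx15: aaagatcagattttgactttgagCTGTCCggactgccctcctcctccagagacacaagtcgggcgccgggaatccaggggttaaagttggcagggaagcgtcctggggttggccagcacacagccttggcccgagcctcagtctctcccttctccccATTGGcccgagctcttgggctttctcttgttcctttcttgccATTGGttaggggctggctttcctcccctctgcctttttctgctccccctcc

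Most of the matched promoters held more CpG than the median of the table, whose entries were not chosen by reads. Among those printed, the counts were 7 in Tbx15, 9 in Pax8, 14 in Lhx6, 16 in Tbx4 and 28 in Foxq1. The 32 matched factors had a median of 17.5 CpG in 250 bases, from 2 in Foxp1 to 46 in Foxk2 and Sox12, and 26 of the 32 lay above 5, the median of all 33469 promoters in the table. The left part of the REST element, TTCAGCACC, was in none of the 32 and in 0.305% of all promoters, and GGACAG was in 4 (Foxj2, Meis3, Sox13 and Tbx15) and in 18.2% of all. The letters from the Pbx and Meis element were found in Tbx4, starting 124 bases before its start site, and in 0.541% of all promoters. The forkhead letters TGTTTAC were in Foxp1 (3.21% of all), the Sox letters ACAATG in Sox6 (11.1% of all), and the T-box letters AGGTGTGA in none (0.959% of all). GC boxes were in 19 of the 32 and in 30.5% of all promoters, and CCAAT boxes in 11 and in 34.0%. A match describes the letters in this window and not a bound site.

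Of the Sox genes, 7 had at least 20 reads, and the libraries of the 2 clones did not overlap for any of them, 3 lower and 4 higher in hrPC12, where 73.5% of all tested genes did not overlap. Sox18, a factor of blood and lymph vessels, was the only one past both thresholds. It had 134 in each wtPC12 library and 17.8 and 16.2 in hrPC12, a 7.82-fold fall (log2 FC −2.97 ± 0.35 SE, edgeR adjusted p = 0.00436). Of the endothelial markers, Pecam1 was at 0 to 2.33 in the 4 libraries, Cdh5 at 5.93 to 9.31, and Tek at 17.4 and 26.8 in wtPC12 against 57.6 and 52.6 in hrPC12. None of the 3 was called, and their part in the Sox18 result was not tested. The other Sox18 relatives, Sox7 and Sox17, had under 20 reads or none.

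Within a Sox subgroup the values lay on both sides, and none passed both thresholds. Sox4, of the SoxC group, had 325 and 735 in wtPC12 and 1112 and 1318 in hrPC12, higher in both hrPC12 libraries but not past the test (log2 FC 1.20 ± 0.42 SE, edgeR adjusted p = 0.0858). Sox12, of the same group, had 854 and 1143 against 503 and 489.7, lower in both (log2 FC −1.01 ± 0.24 SE, edgeR adjusted p = 0.0326), and Sox11, the third of them, had no read. In the SoxD group, Sox13 had 969 and 1055 against 439 and 460.4 (log2 FC −1.17 ± 0.21 SE, edgeR adjusted p = 0.0146). Sox6, a SoxD partner of Sox9 in cartilage, had 1.16 and 1.03 against 14.4 and 15.2, which is 2 reads against 32. That ratio was 13.5 with a counting interval of 3.44 to 116 (edgeR adjusted p = 0.0157).

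Sox8, the SoxE relative of Sox9 and Sox10, had 5.82 and 13.4 in wtPC12 and 35.6 and 35.4 in hrPC12 (log2 FC 1.86 ± 0.54 SE, edgeR adjusted p = 0.0529). Sox10, which marks neural crest precursors and glia, had 0 reads in every library, as did Sox2, the factor of neural stem cells. Sox15 had 633 and 422 against 1078 and 1200.0, about 2.16-fold higher in hrPC12 without overlap (log2 FC 1.11 ± 0.27 SE, edgeR adjusted p = 0.0351).

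The forkhead genes were the largest family, with 18 factors of at least 20 reads. Of these, 16 were tested and 1 was called lower (6.25%, near the 5.46% of all genes tested). Foxh1, the partner of Smad proteins in nodal and activin signaling, had 234 and 196 in wtPC12 and 31.3 and 38.4 in hrPC12. It was 6.15-fold lower in hrPC12 with no overlap (log2 FC −2.62 ± 0.34 SE, edgeR adjusted p = 0.00543). Foxq1, a factor of epithelia and hair, had 22.1 and 22.7 in wtPC12 and no read in hrPC12, at least 8.03-fold lower against the floor (edgeR adjusted p = 0.00309 in the fit of all genes with any read). Foxp2, a factor of neuronal circuits for vocalization, showed the opposite, with no read in wtPC12 and 27.1 and 23.3 in hrPC12. It was at least 7.65-fold higher (edgeR adjusted p = 0.00277 in the same fit). Where 5.31% of the 18416 genes in that fit were called lower and 6.12% higher, it added Foxq1 to the lower and Foxp2, Pax8 and Tbx15 to the higher factors.

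Among the relatives of Foxp2, only Foxp1 also had both hrPC12 libraries above both wtPC12 libraries, and none of the relatives was called. Foxp1 had 54.7 and 184 in wtPC12 and 286 and 260.0 in hrPC12 (log2 FC 1.19 ± 0.59 SE, edgeR adjusted p = 0.176), with the wtPC12 libraries far apart. Foxp4 had 1397 and 1562 against 1499 and 1541, the most even of the 4 Foxp genes, with overlapping libraries (log2 FC 0.04 ± 0.18 SE, edgeR adjusted p = 0.878). Foxp3, best known as the factor of regulatory T cells, had 832 and 719 against 519.8 and 497 (log2 FC −0.61 ± 0.22 SE, edgeR adjusted p = 0.0902). These Foxp3 levels stood beside 0 to 0.847 for Ptprc, the pan-leukocyte gene, and 2.06 to 8.14 for Cd3e, the T-cell gene. Whether the reads at Foxp3 include those of an overlapping gene was not tested, since the strand setting of the counting is not given in the sources used here.

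The Foxo genes are effectors of insulin and Akt signaling that stop growth when the signal is low. None passed in the test (0 of 4 by edgeR and by DESeq2). An unadjusted p under 0.05 in the edgeR test was reached by 0 of the 4 and by 46.3% of all tested genes. Between the clones 3 of the 4 overlapped, where 73.5% of all tested genes did not overlap. Foxo1 had 263 and 773 in wtPC12 and 578 and 554 in hrPC12 (log2 FC 0.13 ± 0.52 SE, edgeR adjusted p = 0.860). Foxo3 had 244 and 645 against 946 and 481, and the libraries of each clone differed by more than the clones did (log2 FC 0.68 ± 0.57 SE). Foxo4, the one without overlap, had 1039 and 1418 against 914 and 890.4 (log2 FC −0.45 ± 0.23 SE, edgeR adjusted p = 0.196). Foxo6 had 171 and 215 against 232 and 139 (log2 FC −0.06 ± 0.37 SE). Foxm1, the forkhead factor of mitosis, had 1320.3 and 1453 in wtPC12 and 2589 and 2667 in hrPC12. It was 1.89-fold higher with tight libraries in both clones, under the fold threshold (log2 FC 0.92 ± 0.17 SE, edgeR adjusted p = 0.0163).

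Of the widely expressed forkhead genes, Foxk2 had 936 and 1377 in wtPC12 and 3359 and 1904 in hrPC12 (log2 FC 1.19 ± 0.35 SE, edgeR adjusted p = 0.0567), while its relative Foxk1 overlapped between the clones (237 and 486 against 328 and 332). Foxj3 had 941 and 1343 against 1828 and 1882, and Foxj2 had 748 and 967 against 1180.1 and 1215. Both were higher in both hrPC12 libraries and did not pass (log2 FC 0.70 and 0.48, edgeR adjusted p = 0.0788 and 0.152). Foxn3 had 227 and 909 against 828 and 748, set apart by wtPC12 replicate 1 alone. Foxn1, the factor of thymus epithelium and hair, had 2 reads in wtPC12 and 24 in hrPC12, a ratio of 10.1 with a counting interval of 2.51 to 88.4 (edgeR adjusted p = 0.0277). Foxd2, a factor of mesoderm and kidney, had 52.3 and 61.8 against 77 and 66.8 (log2 FC 0.33).

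In the TALE homeobox group, the cofactors of Hox proteins, Pbx2, Pbx3, Pbx4 and the 3 Meis genes were read in both clones. None of them was called by edgeR or by DESeq2. Pbx2 and the Meis genes had an unadjusted p under 0.05 in the edgeR test, as did 46.3% of all tested genes. Pbx2 lay lower in hrPC12, with close libraries at 2693 and 2712 against 1266 and 1209. It had an adjusted p under 0.01 but a fold of 2.18, short of the fold threshold (log2 FC −1.13 ± 0.17 SE, edgeR adjusted p = 0.00852). Pbx3 had 1084 and 1284 against 1287 and 1391 (log2 FC 0.18 ± 0.20 SE, edgeR adjusted p = 0.517), and Pbx4 had 51.2 and 41.2 against 66 and 52.6 (log2 FC 0.36 ± 0.37 SE, edgeR adjusted p = 0.476). Neither of these differed beyond its error.

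The Meis genes, whose proteins bind with Pbx proteins, also lay on both sides. Meis2 had 34.9 and 28.8 in wtPC12 and 130 and 125 in hrPC12, 3.99-fold higher and just under the fold threshold (log2 FC 2.00 ± 0.34 SE, edgeR adjusted p = 0.0128). Meis1 had 1968 and 1520.4 against 2753 and 2815 (log2 FC 0.67 ± 0.20 SE, edgeR adjusted p = 0.0548). Meis3 had 1348 and 1066 against 681 and 693, lower in both hrPC12 libraries (log2 FC −0.81 ± 0.22 SE, edgeR adjusted p = 0.0445).

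Six4, a factor of muscle precursors and sensory placodes, had 718 and 1096 against 742 and 734, with overlap (log2 FC −0.30 ± 0.27 SE). Irx5, a factor of heart and retina, was the only Irx gene read over 20 times, with 12.8 and 17.5 against 84.7 and 49.6 (log2 FC 2.14 ± 0.48 SE, edgeR adjusted p = 0.0276). Both hrPC12 libraries were above both wtPC12 libraries. Pax8, a factor of thyroid and kidney, had no read in wtPC12 and 50.8 and 39.5 in hrPC12, at least 13.7-fold higher against the floor (edgeR adjusted p = 0.000905 in the fit of all genes with any read). Its promoter is among those printed above.

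Summed by family, the Tbx, Lhx and Dlx genes were lower in both hrPC12 libraries. The sums describe the libraries and weight long transcripts. The Dlx sum was 1691 and 1153 in wtPC12 and 190.5 and 185 in hrPC12, most of it Dlx3, and the Lhx sum 946 and 1186 against 521 and 545. The Tbx sum was 2182 and 4128 against 631 and 525, where Tbx3 and Tbx20 made up most of the wtPC12 reads and Tbx20 most of the hrPC12 reads. The Fox sum was higher in hrPC12, at 8726 and 12346 against 15243 and 13251, and the Sox sums overlapped, at 2921 and 3506 against 3201 and 3536. The Meis sum was 3351 and 2615 against 3564 and 3634. The median log2 FC of the tested genes was 0.40 in Fox, 1.11 in Sox, −1.71 in Tbx, −1.40 in Lhx, −1.35 in Dlx and 0.67 in Meis, each over 3 to 16 genes.

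**Figure D3:**
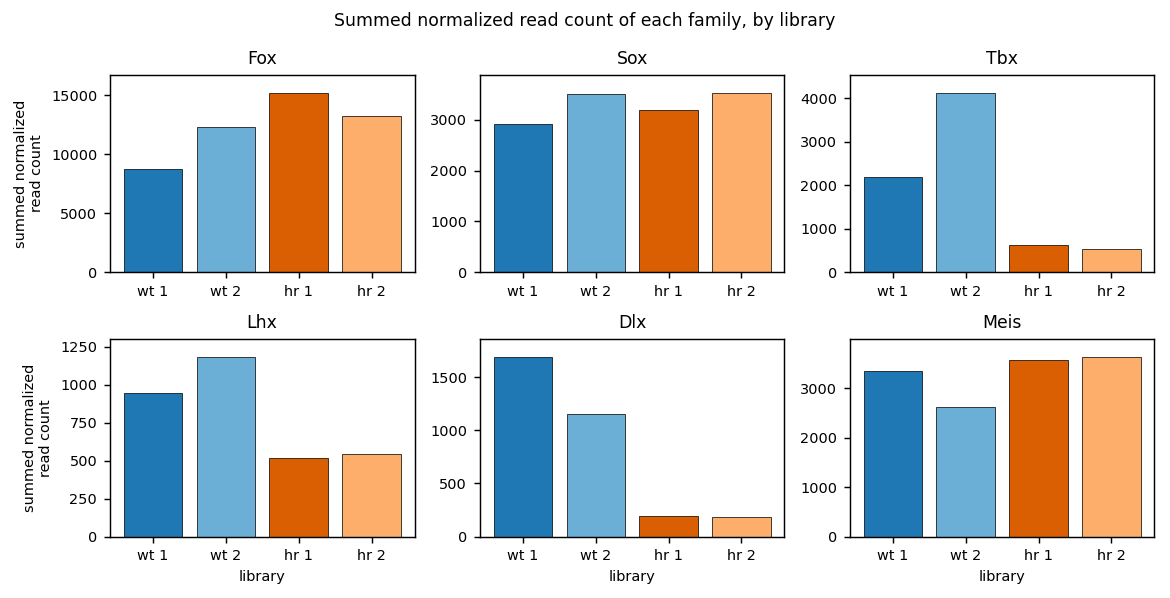
Summed normalized counts (y axes, linear and starting at 0) of 6 families, 1 panel each, with 1 bar per library (blue, wtPC12; orange, hrPC12). Bars have no error, since each is 1 library. The Tbx, Lhx and Dlx sums of both hrPC12 libraries lie under those of both wtPC12 libraries, the Fox sums lie above, and the Sox sums overlap.

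Between the wtPC12 libraries, replicate 2 was often the higher for these factors. In 9 of the 44 tested factors with a read in wtPC12 replicate 1 (20.5%), replicate 2 was over 2-fold above replicate 1, Foxk1, Foxn3, Foxo1, Foxo3, Foxp1, Sox4, Sox8 and Tbx20 among them, against 9.49% of all tested genes, and in 1, Tbx19, it was the other way round. The median log2 ratio of replicate 2 over replicate 1 was 0.27 for the factors and −0.04 for all genes. In hrPC12, 5 factors (11.1%; Foxk2, Foxo3, Foxo6, Irx5 and Dlx4) had replicate 1 over 1.5-fold above replicate 2, against 22.6% of all genes. None of the 7 factors called lower is among these. For Foxn3, Foxo1, Foxo3, Foxk1, Foxp1 and Tbx20, then, the spread within wtPC12 was as large as or larger than the log2 FC between the clones.

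**Figure D4:**
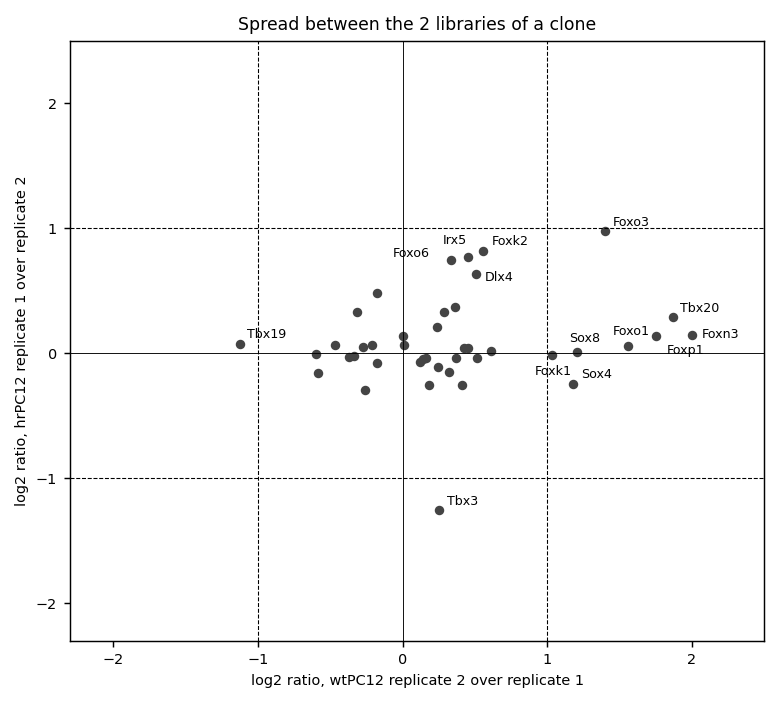
Spread within each clone for 42 tested factors: log2 ratio of wtPC12 replicate 2 over replicate 1 (x axis) against log2 ratio of hrPC12 replicate 1 over replicate 2 (y axis), 1 point per gene, with dashed lines at 2-fold. There are 8 points past 2-fold to the right and 1 to the left, and Tbx3, at the bottom, had at most 2 reads in each hrPC12 library.

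Other genes that work with these factors were followed in 6 lists: their partners, further homeobox and lineage factors, and genes known as targets of Foxm1, of the Foxo factors, of Sox9 in cartilage and of Sox10 in glia and melanocytes. Together they hold 146 genes, of which 117 were in the tables and 65 were tested, with 4 called lower and 8 higher, where 10.3% of all tested genes were called in either direction. Of 10 partners tested, Eya2, a coactivator of Six4 and its relatives, fell from 88.4 and 76.2 in wtPC12 to 5.93 and 7.08 in hrPC12 (log2 FC −3.64 ± 0.43 SE, edgeR adjusted p = 0.00414). Tgif1, a TALE repressor that shares sites with Meis proteins, rose from 113 and 84.5 to 458 and 436 (log2 FC 2.18 ± 0.30 SE, edgeR adjusted p = 0.00646). Tle2, a Groucho corepressor, had 681 and 998 against 214 and 206, just under the fold threshold (log2 FC −1.996 ± 0.29 SE, edgeR adjusted p = 0.00789). The median of the 10 was −0.19.

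Of the further homeobox and lineage factors, 16 were tested, with 1 lower and 2 higher and a median log2 FC of −0.56. Among all tested genes, 5.46% were called lower and 4.84% higher. Hopx, a small homeodomain protein of heart and epithelia, had 1937 and 1099 against 177 and 197 (log2 FC −3.02 ± 0.35 SE, edgeR adjusted p = 0.00403). Shox2, a factor of limb and sinus node, had 20.9 and 20.6 against 586 and 553 (log2 FC 4.77 ± 0.30 SE, edgeR adjusted p = 0.000767), the largest rise in this list. Isl2, a LIM-homeobox factor of motor neurons that the name rule does not take, had 48.9 and 68 against 296 and 311 (log2 FC 2.37 ± 0.32 SE, edgeR adjusted p = 0.00653). Lmx1a, a LIM-homeobox factor of midbrain dopamine neurons, had no read in wtPC12 and 14.4 and 11.1 in hrPC12, at least 3.88-fold higher against the floor.

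**Figure D5:**
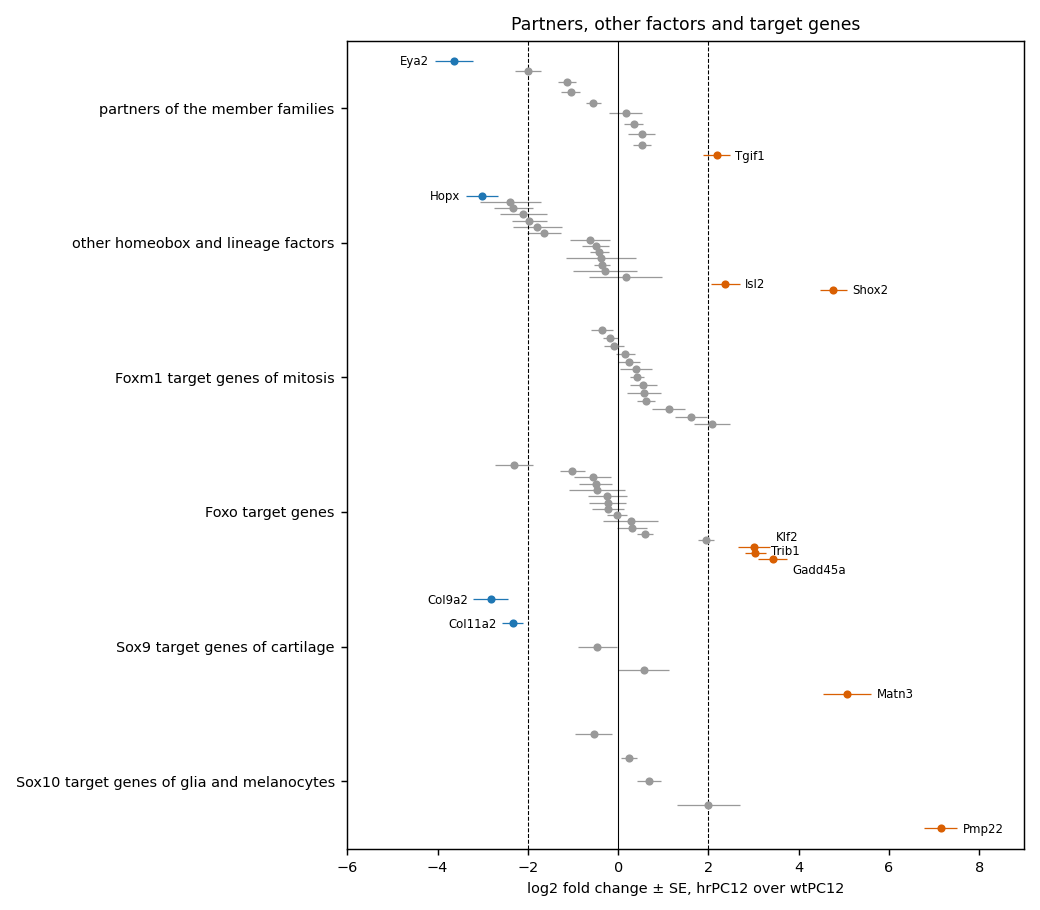
log2 FC (x axis, hrPC12 over wtPC12) of the 65 tested genes of the 6 lists (y axis), with bars of 1 standard error and dashed lines at the fold threshold of 2 on the log2 scale. Blue marks genes called lower and orange genes called higher. The 12 called genes are named, from Eya2 at −3.64 to Pmp22 at 7.14.

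None of the 13 Foxm1 targets of mitosis was called by edgeR, and DESeq2 called 1. In the edgeR test 5 of the 13 had an unadjusted p under 0.05, where 46.3% of all tested genes did. The median log2 FC of the 13 was 0.42. Cenpf, of the kinetochore, had 729 and 748 in wtPC12 and 4275 and 1970 in hrPC12 and came closest (log2 FC 2.08 ± 0.40 SE, edgeR adjusted p = 0.0178). Of 16 Foxo targets tested, 3 rose, with a list median of −0.12: Gadd45a, a stress and DNA repair gene, from 320 and 193 to 2661 and 2821 (log2 FC 3.42 ± 0.31 SE, edgeR adjusted p = 0.00197), Trib1, a pseudokinase (log2 FC 3.04), and Klf2, a Krüppel-like factor (log2 FC 3.01). Cdkn1b, a cell cycle inhibitor, had 751 and 696 against 2745 and 2856, also just under the fold threshold (log2 FC 1.95 ± 0.18 SE, edgeR adjusted p = 0.0020). Bcl6, a repressor on the same list, was read in hrPC12 only and was at least 16.9-fold higher. Irs2, also on this list, went the other way, with 1373 and 3058 in wtPC12 against 439 and 453 in hrPC12. It was past the fold threshold but not called (log2 FC −2.31 ± 0.42 SE, edgeR adjusted p = 0.0153). DESeq2 called 3 of the 16 Foxo targets higher and 1 lower, beside 879 higher and 909 lower of all 13726 genes tested. Of all tested genes, edgeR called 4.84% higher and 5.46% lower. None of the 4 Foxo genes passed the test, as given above.

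Of 5 Sox9 targets of cartilage tested, Col9a2 and Col11a2, which code for chains of cartilage collagens, fell (log2 FC −2.82 and −2.34), and Matn3, a matrilin, rose from 4.65 and 4.12 to 193 and 110 (log2 FC 5.08 ± 0.53 SE, edgeR adjusted p = 0.00297). The rest of the 5 were not called, and edgeR called 5.46% of all tested genes lower and 4.84% higher. The list median was −0.46, and 0.05 with Matn1, read in hrPC12 only, at its bound of at least 12-fold higher, so its sign depends on that gene. Of 5 Sox10 targets tested, Pmp22, a myelin gene, rose from 212 and 123 to 22614 and 24574 (log2 FC 7.14 ± 0.37 SE, edgeR adjusted p = 0.000509). Mitf, the melanocyte factor, had no read in wtPC12 and 1355 and 1315 in hrPC12, at least 406-fold higher. Sox10 had 0 reads in every library. The part of Sox10 or of its relatives in these values was not tested.

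The 23 factors with 1 to 19 reads hold 7 of the 8 Pax genes, and none can be compared closely at this depth. Pax9, a factor of thymus and teeth, had 12 and 6 reads in wtPC12 and 0 and 0 in hrPC12, and Tbx5, the neighbor of Tbx3, had 4 and 8 against 2 and 0. Both were low in hrPC12. Pax4 had 0 and 0 against 4 and 2 reads, and Pax3 and Lhx8 each 0 and 0 against 3 and 2. The 26 factors with no read in any library include Sox2, Sox10, Sox11, Sox17, Foxa1, Foxa2, Foxd3, Lhx1, Msx1 and Tbx1. A count of 0 allows up to 3 reads, or 2.54 to 3.49 normalized counts in a library, so these genes are given as listed at 0 and not as absent.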

How the data were processed

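RNA of each clone was made into libraries with the Illumina TruSeq v2 kit and sequenced on a HiSeq 2000. The authors aligned reads to rat RGSC3.4 (rn4) and counted them per gene; the submitters' processing notes name TopHat2 2.0.4, HTSeq 0.5.3 and DESeq 1.9.12. The strand setting is not given in the sources used here, so overlapping and antisense genes cannot be told apart, and reads with several positions could be split among relatives or left out. The deposited files hold raw read counts per gene. Rows that name no gene held 58.7% to 62.1% of reads and were left out. The deposited table of the authors' own comparison (fold changes and p values) was not used.

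Counts were scaled by TMM and tested with edgeR 4.0.16 in R 4.3.3 (quasi-likelihood, legacy option on, common dispersion 0.0745) over 13726 genes with a mean normalized count of 5 or more that were read in both clones, with Benjamini-Hochberg adjustment. Thresholds were 0.01 for the adjusted p and 2 for the size of log2 FC. The test was checked on simulated data. DESeq2 1.42.0 and other settings were alternatives. Some genes are counted but not reported here by name or drawn. The factors and gene lists were chosen with earlier results of these data known. Among the factors, the others with at least 20 reads are named. Listed genes are named where called or where at least 20 reads fell in one clone only. Tle2, Cdkn1b, Cenpf and Irs2, near the thresholds, were added after their values were seen. Replicate numbers follow the order of the samples and pair nothing. Standard errors are of the fitted log2 FC, n = 2 libraries per clone.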

Additional observations from a re-analysis of the deposited data

How the results depend on the processing

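The 7 factors called lower all passed in both hrPC12 leave-one-out fits, with RLE factors, filterByExpr, DESeq2, library totals alone, all genes that had a read, the legacy option off and a prior count of 2, which called 7 or 8 lower. With glmTreat, which tests against the fold threshold itself, 3 passed (Lhx6, Tbx3 and Tbx4), and leaving out a library gave 0 to 7. The count of 0 called higher became 1 with RLE factors or DESeq2, 1 with the legacy option off (Sox6), 2 with library totals alone (with Meis2), 3 with filterByExpr (Foxp2, Pax8 and Sox6), 4 with all genes that had a read (with Foxp2, Pax8 and Tbx15), 5 at an adjusted p under 0.05, and 0 to 1 when a library was left out. The 12 listed genes called became 2 with glmTreat and 0 to 17 when a library was left out. Where 1 library of a clone remains, it is assumed to vary like those of the other clone; the 0 values come from leaving out wtPC12 replicate 2, where no gene passed at all. The cause of each of these changes was not tested. The sign of log2 FC turned when a library was left out for Foxk1 (−0.59 to 0.48), Foxn3 (−0.24 to 1.80), Foxo1 (−0.48 to 1.11), Foxo6 (−0.48 to 0.22), Foxp4 (−0.069 to 0.12) and Six4 (−0.60 to 0.040), and for Foxp4 with RLE factors (−0.00011); none of these was called. With 2 libraries per clone and 20975027 to 27246502 reads, factors under 20 reads could not be compared. No paired analysis was possible because the labels give the libraries of the 2 clones no shared replicate numbers.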
